A study of Canis lupus familiaris with 51 samples.

Results

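Heart and spleen hemangiosarcomas of 1 dog breed, the Golden Retriever, were compared. Membership was set by the breed and tissue labels alone, which gave 26 tumours, 6 from heart and 20 from spleen, of 51 in the series. All 51 are labelled as hemangiosarcoma, no treatment is recorded for any, and each was profiled by sequencing of total RNA. The heart tumours came from 3 neutered males, 2 intact males and 1 intact female aged 8.4 to 10.9 years at diagnosis. The spleen tumours came from 4 neutered males, 6 intact males, 7 neutered females and 3 intact females aged 3 to 13.6 years. Tumours of other breeds, 5 from heart (3 males, 2 females, 5.9 to 11.2 years) and 12 from spleen (6 males, 6 females, 8.5 to 13.5 years), were used as a second, separate set of dogs for the same contrast. Neutered dogs gave 3 of these hearts and 9 of these spleens. The hearts were from a Border Collie Mix, a Bernese Mountain Dog, a Portuguese Water Dog, a Labrador retriever and a Saluki. The spleens were from 3 German Shepherd Dogs, 2 Keeshonds, 2 Portuguese Water Dogs, and 1 each of Bullmastiff, Gordon Setter, Boxer, Labrador Retriever and Briard, so organ and breed are mixed in this set. Tumours are numbered within each group in the order of the samples, and the numbers pair nothing.

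Hemangiosarcoma is a malignant tumour whose cells resemble the lining of blood vessels and which forms blood-filled spaces that are prone to rupture. In dogs the spleen and the heart, most often the right atrium, are frequent sites, and the Golden Retriever is a breed in which it is often diagnosed. A tumour sample of this kind holds tumour cells together with the stroma, immune cells and blood of the organ around it, so a heart piece can carry heart muscle RNA and a spleen piece RNA of lymphoid tissue. In such bulk samples fewer cells of a type and less RNA per cell cannot be told apart.

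The genes carry Ensembl identifiers of the dog genome, and 0 of the 16382 could be paired with a symbol in the gene table used here. What each gene does, where it lies and which protein it encodes is therefore not given, and the tissue labels could not be checked against muscle, lymphoid or vessel markers. Following the rule set for this case, 4 genes are named, the pair with the smallest p among those higher in heart and the pair with the smallest p among those lower. Other genes are described by their counts and values. Levels are in FPKM, fragments per length of transcript and per number of mapped fragments, and differences are heart minus spleen on the log2(FPKM + 1) scale, on which changes of low genes are understated.

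No library measure differed in its mean between the organs by test, which with 6 hearts does not show that they are equal. Some measures were more spread in spleen. The share of the 10 highest genes in the summed FPKM was 6.608 ± 1.009% in heart and 8.192 ± 5.452% in spleen (SD). Relative depth, solved from the steps between low FPKM values, ran from 0.812 to 1.42 in heart and from 0.503 to 2.04 in spleen. Heart libraries had 11223 ± 317 genes at 1 FPKM or more and spleen libraries 11199 ± 214 (SD), and 6 library measures including age gave exact permutation p values from 0.355 to 0.889, all with an adjusted p of 0.889. Heart 1 had the fewest such genes of the heart tumours, 10604, although its relative depth of 1.42 was the highest among them. Spleen 16 stood apart, with 29.96% of its summed FPKM in its 10 highest genes. Males gave 5 of 6 heart tumours and 10 of 20 spleen tumours (Fisher's exact test p = 0.197), and the 4 Golden Retriever samples with CHAD titles, a prefix the labels do not explain, were all spleen tumours. In the other breeds 1 heart, heart 1, and 1 spleen carry it.

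The question was which transcripts differ by organ when breed is held constant. Of 12520 genes tested, 2 were higher in heart, which is 0.016%, and 0 were lower, which is 0% (limma, adjusted p under 0.05). A raw p, that is before adjustment, below 0.05 was found for 613 genes or 4.9%: 370 (2.96%) with the higher level in heart and 243 (1.94%) with the lower. Below 0.001 the raw p placed 54 genes, 53 of them higher in heart. By an exact rank test for each gene none, 0 of 12520, passed. The lowest adjusted p was 0.218, and 603 genes had a raw p below 0.05, 323 toward heart and 280 toward spleen. The count of 2 depended on single hearts: it was 49, 41 and 32 without heart 1, 2 and 3, all higher in heart, but 1 without heart 6 and 0 without heart 4 or heart 5 (limma, with 429 and 558 genes at a raw p below 0.05). The filter on low values asked for 3 tumours at 1 FPKM, and both called genes met it only with the hearts counted (4 hearts and 1 spleen, and 3 hearts and 0 spleens). Genes with fewer than 3 spleens at that level entered the test only through hearts that reached it. They numbered 201, held 65 of the 370 raw p below 0.05 toward heart and 35 of the 54 below 0.001, and none of those toward spleen. Among the other 12319 genes 305 were higher and 243 lower at a raw p below 0.05, with 0 calls (limma). Without the filter both genes were still called, among 5. The count of 2 was 6 without spleen 12, 3 without spleen 19 and 2 without any 1 of the other spleen tumours.

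ENSCAFG00000014457 rose in heart tumours. Its level was 5.0, 0.928, 0.452, 4.39, 9.16 and 2.97 FPKM in hearts 1 to 6. In the spleen tumours it was listed at 0 in 13 of 20, had a median of 0 and reached at most 1.49 FPKM, in spleen 14. Hearts 1, 4, 5 and 6 lay above every spleen tumour, while hearts 2 and 3 lay within the spleen range. The means were 3.82 ± 3.18 FPKM in heart and 0.225 ± 0.385 FPKM in spleen (SD), a log2 difference of 1.73 ± 0.27 (SE, limma adjusted p = 0.00738).

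ENSCAFG00000002572 rose as well, from a level near 0. Hearts 2 to 6 had 0.507, 0.747, 1.71, 2.71 and 2.92 FPKM, and heart 1 was listed at 0. Among the spleen tumours 18 of 20 were listed at 0, and spleens 2 and 12 had 0.080 and 0.057 FPKM. So 5 of 6 hearts exceeded every spleen tumour, and it was the only 1 of the 12520 tested genes for which that many did. The means were 1.43 ± 1.21 FPKM in heart and 0.00681 ± 0.0213 FPKM in spleen (SD). The log2 difference was 1.11 ± 0.18 (SE, limma adjusted p = 0.00738). The fit used a single variance per gene for both organs, and both called genes had a much larger SD in the smaller group, heart. Their SE, interval and p can therefore understate the spread between hearts.

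Both genes rest on low values, a limited number of steps above 0. Once relative depth was removed, the values of ENSCAFG00000002572 were whole multiples of the smallest one, within 0.1, in 19 of 19 libraries of the series above 0. If that smallest step is 1 fragment, hearts 2 to 6 held 6, 9, 31, 37 and 33 fragments, and spleens 2 and 12 held 1 each. For ENSCAFG00000014457 the steps were less exact, with 14 of 25 libraries within 0.1 of a whole multiple. Rounded, its hearts 1 to 6 were at 18, 2, 1, 15, 23 and 6 steps, and no Golden Retriever spleen tumour exceeded 3. Hearts thus differed by more than a few steps in both genes. Whether a step is 1 fragment is not known, and counting noise was not tested.

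Both calls depended on which dogs entered. Without heart 4 the log2 difference of ENSCAFG00000014457 was 1.64 (limma adjusted p = 0.087) and without heart 5 it was 1.46 (limma adjusted p = 0.0755), while ENSCAFG00000002572 no longer passed the filter on low values when heart 4, 5 or 6 was left out. Without the 4 CHAD spleen tumours both genes had an adjusted p of 0.0502 (limma), at log2 differences of 1.72 and 1.11. In males alone, 5 hearts against 10 spleens, the differences were 1.97 and 1.17 with adjusted p of 0.234 and 0.576 (limma).

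2 genes stood first among those lower in heart, and neither passed the test. ENSCAFG00000003555 was at 0.849, 2.84, 0.465, 0.963, 1.48 and 1.05 FPKM in hearts 1 to 6, against a lowest, median and highest spleen value of 0.516, 6.91 and 28.7 FPKM. All 6 hearts were under the spleen median, and 15 of 20 spleens were above every heart. The log2 difference was -1.73 ± 0.45 (SE, limma adjusted p = 0.192).

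ENSCAFG00000017107, a more abundant gene, was at 48.3, 53.2, 30.03, 38.5, 38.0 and 40.9 FPKM in hearts 1 to 6. The spleen tumours ran from 45.8 to 156 FPKM with a median of 61.3. Hearts 3 to 6 were below every spleen tumour, and hearts 1 and 2 were inside the spleen range. The log2 difference was -0.56 ± 0.16 (SE, limma adjusted p = 0.366). The highest spleen value, 156 FPKM in spleen 1, lay far above the next, 69.3 FPKM in spleen 14. When limma was allowed to weight each library by its own scatter (array weights), both lower genes passed, with adjusted p of 0.021 and 0.00972 (limma).

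**Figure D1:**
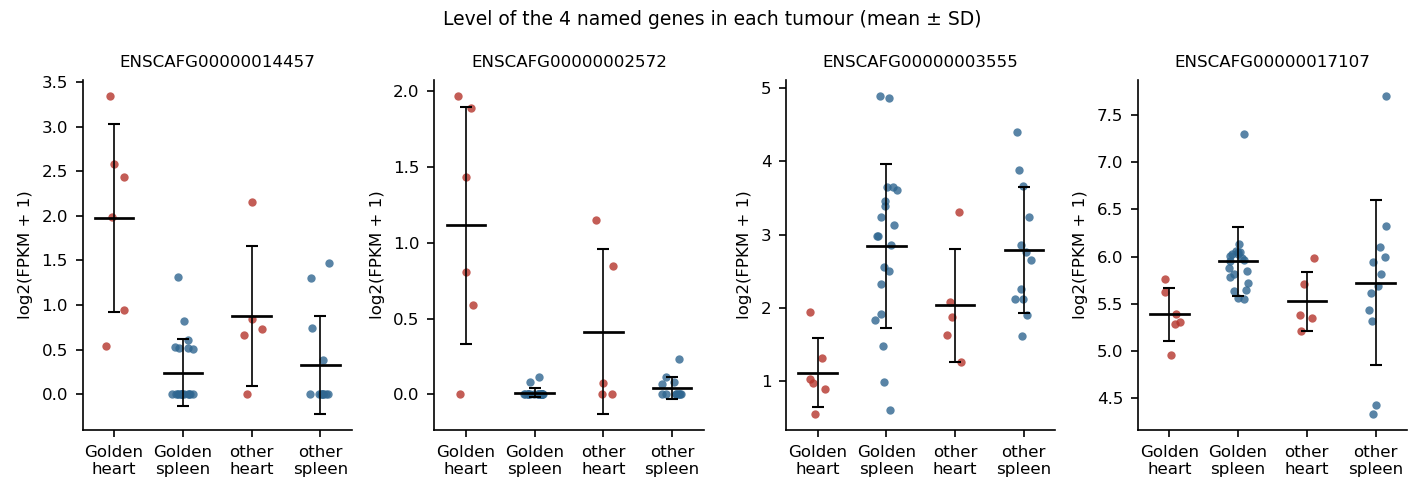
The vertical axes give log2(FPKM + 1) for the 4 named genes, with 1 point per tumour in 4 groups (6 Golden Retriever hearts, 20 Golden Retriever spleens, 5 hearts and 12 spleens of other breeds), and lines and bars for the mean and SD. The pair on the left is near 0 in most spleen tumours and spread out in the hearts, and the pair on the right is lower in hearts with overlapping ranges.

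The size of differences that these tumours could show was read from the 95% intervals. For 9375 genes, 74.9% of those tested, the interval of the heart minus spleen difference lay within -1 and 1 on the log2 scale, that is, within 2-fold on the log2(FPKM + 1) scale. The median half-width of the interval was 0.47. For the other genes the interval reached past 2-fold in at least 1 direction. At a raw p below 0.05, 132 of the 12520 genes were higher and 50 lower in heart by 2-fold or more. Genes with a mean under 1 FPKM gave 18 and 0 of these, and those of 1 to 5 FPKM gave 48 and 5. Those of 5 to 50 FPKM gave 58 and 35, and those of 50 FPKM or more gave 8 and 10. A gene under 1 FPKM in every spleen tumour cannot be lower in heart by 2-fold on this scale, but can be higher. Low genes could also pass the filter on low values only with the hearts counted. The directions are therefore not on equal terms at low levels.

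The calls lay among low genes. The genes with a mean under 1 FPKM over the 26 tumours (n = 785) held 1 of the calls and 69 genes at a raw p below 0.05 (8.79%), 58 of them higher in heart. Of these 58, 48 had 1 FPKM in fewer than 3 spleens and so passed the filter only with the hearts counted, and among the 616 genes of this level that passed on spleens alone 10 were higher and 11 lower. Genes with a mean of 1 to 5 FPKM (n = 2182) held the other call and 6.83% at that threshold. Among 7488 genes of 5 to 50 FPKM and 2065 genes of at least 50 FPKM there were 0 calls (limma), and 4.34% and 3.39% had a raw p below 0.05. These levels still held 12 and 2 of the 54 genes with a raw p below 0.001. All of 12520 genes together had a median difference of -0.01.

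The most abundant transcripts were also set side by side in the organs. The 100 genes with the highest mean, each at 638 FPKM or more, included 84 that were among the 100 highest in heart and in spleen taken separately. Their differences ran from -1.50 to 1.42 with a median of -0.06, and 97 of 100 were within 2-fold. Of all 12520 tested genes 327 differed by 2-fold or more, so the share within 2-fold is near that of all genes. The 95% interval was within 2-fold for 61 of the 100, against 74.9% of all tested genes. None of the 100 passed in limma (0 calls, lowest adjusted p 0.838), and 3 had a raw p below 0.05.

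**Figure D2:**
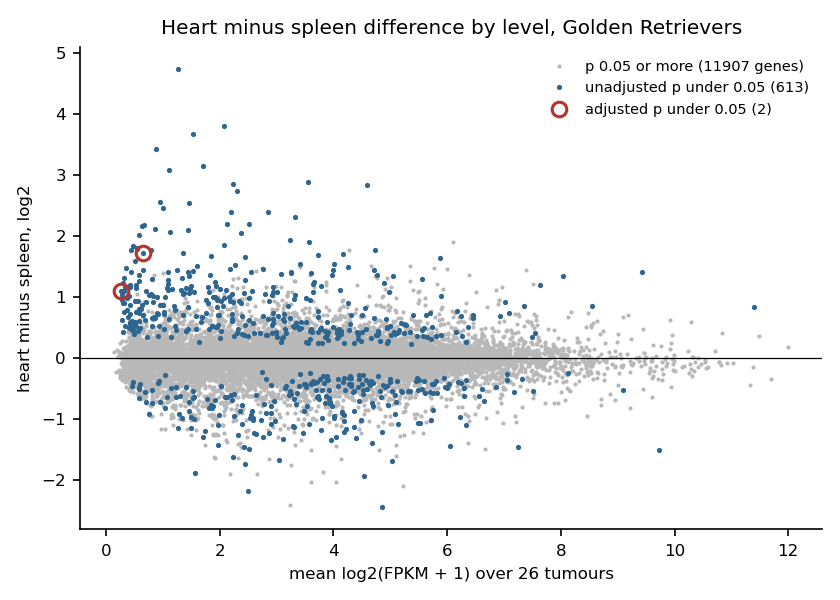
Each point is 1 of 12520 genes, with the mean log2(FPKM + 1) over 26 tumours on the horizontal axis and the heart minus spleen difference on the vertical axis. Red circles mark the 2 called genes, both at the low end, and blue points the 613 genes with a raw p below 0.05.

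Separation of the organs was also counted without a model. For 0 genes did all 6 hearts lie above all 20 spleens, and for 0 did they lie below. Of the 12520 genes tested, at least 4 hearts were above every spleen for 24, and at least 4 were below every spleen for 7. A gene at 0 in any spleen can have hearts, or a heart median, above every spleen but never below. The median of the mean levels was 2.01 FPKM for the 24 and 20.9 FPKM for the 7, so the 2 directions are not on equal terms. The heart median exceeded every spleen value for 70 genes (0.559% of those tested) and was under every spleen value for 9 (0.0719%). Of these 70 genes, hearts 4, 5 and 6 exceeded the spleens for 60, 57 and 64 genes, and hearts 1, 2 and 3 for 20, 13 and 21. The median level of the 70 genes was 0.52, 0.599, 1.33, 7.78, 7.52 and 11 FPKM in hearts 1 to 6, so hearts 4, 5 and 6 carried most of it. These genes were chosen by their values, and no test was made of them.

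The genes called when heart 1, 2 or 3 was left out had levels that split the hearts. The lists of 49, 41 and 32 genes without each of these hearts held 56 genes in all, the 2 called with all 6 hearts included, and had 28 in common. Leaving out heart 1, 2 or 3 favours genes low in that heart, so a split is in part set by the choice. The share of all tested genes with the order below is not given. In 41 of the 56, each of hearts 4, 5 and 6 was higher than each of hearts 1, 2 and 3, and 41 of 56 had a mean under 5 FPKM. Their median levels were 0.107, 0.309, 0.836, 7.81, 7.36 and 10.8 FPKM in hearts 1 to 6. In spleen the typical gene of the 56 had a median of 0.116 and a maximum of 1.47 FPKM. Hearts 4, 5 and 6 came from an intact and a pair of neutered males, and hearts 1, 2 and 3 from a neutered male, an intact male and an intact female. Hearts 1, 2 and 3 also precede hearts 4, 5 and 6 in the numbers of their sample titles, which the labels do not explain. Whether that order bears on the split was not tested.

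The gene with the largest difference among the 12520 followed the same hearts. It was at 493.02, 368.38 and 981.84 FPKM in hearts 4, 5 and 6 and at 1.01, 0.45 and 0.44 FPKM in hearts 1, 2 and 3, with at most 0.854 FPKM in the spleen tumours. Its log2 difference of 4.74 ± 0.94 did not pass (SE, limma adjusted p = 0.0609).

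Some genes were present in a heart tumour and nearly absent from spleen. 15 genes reached 10 FPKM in at least 1 heart and stayed under 1 FPKM in all 20 spleens, and 11 of them reached that level in 1 heart only. Heart 6 held 9 of the 15 at that level, heart 4 held 5, heart 3 held 4, heart 5 held 2, heart 2 held 1 and heart 1 held 0. In 10 of the 15, hearts 4, 5 and 6 were each above hearts 1, 2 and 3, where these 10 genes stayed at or under 1.01 FPKM. Another 4 were highest in heart 3, at 78.63, 55.95, 25.36 and 10.62 FPKM, with at most 0.63 FPKM in the other hearts, and the last was at 15.28 FPKM in heart 2 and listed at 0 in the other hearts. 5 of the 15 genes also reached 10 FPKM in a heart tumour of another breed, 1 of them at 545.07 FPKM. The 10 genes shared by hearts 4, 5 and 6 were all highest in heart 1 among the other-breed hearts, and 2 of them reached 10 FPKM there. That heart has a CHAD title, and hearts 4, 5 and 6 do not. None of the 15 was called (limma), and 6 of them did not pass the filter on low values and were not tested. The 15 were chosen by their values, and how many of all genes share the order seen in the 10 is not given.

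In the opposite direction, 146 genes reached 10 FPKM in at least 1 spleen and stayed under 1 FPKM in all 6 hearts. Of these 99 were highest in spleen 16, the tumour with the concentrated library, and 128 reached 10 FPKM in 1 spleen only. There are more spleen than heart tumours, so the counts of 15 and 146 cannot be set against each other.

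**Figure D3:**
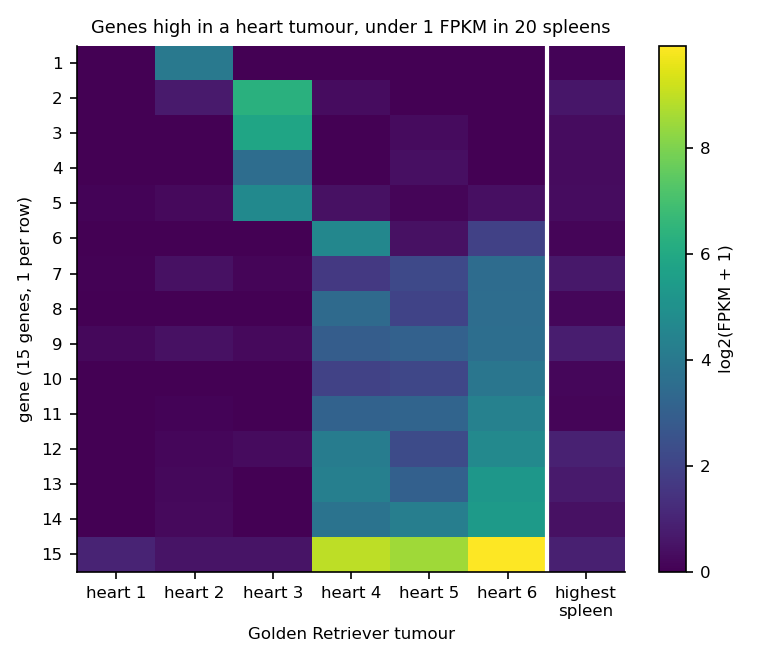
Rows are the 15 genes that reached 10 FPKM in a Golden Retriever heart tumour and stayed under 1 FPKM in 20 spleens, columns are the 6 hearts and the highest spleen value, and colour gives log2(FPKM + 1). The 10 lowest rows are brighter in hearts 4, 5 and 6 than in hearts 1, 2 and 3, and 4 rows above them are bright in heart 3.

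The whole profile did not group the tumours by organ. Over the 12520 genes the mean Pearson correlation between tumours was 0.891 within heart, 0.868 within spleen and 0.875 between the organs. Correlation within organs minus that between them was -0.0049 (exact permutation test over samples, two-sided p = 0.694). The difference between heart and spleen in their own correlation was 0.0235 (exact permutation p = 0.405). The tumour most like it was a spleen tumour for hearts 1, 2, 3 and 4, and hearts 5 and 6 were most like each other, at a correlation of 0.951. For 18 of 20 spleen tumours the nearest was another spleen tumour. With 20 spleens and 6 hearts a nearest neighbour is more often a spleen by number alone.

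Principal components separated the organs little, except in part the fourth. The first held 28.7% of the variance, with scores of -16.4 ± 41.5 in heart and 4.9 ± 44.7 in spleen (SD). The first 3 and the fifth did not separate the organs (exact permutation p from 0.283 to 0.837, adjusted p from 0.516 to 0.837 over 5 components). The fourth held 6.7% of the variance and had scores of 18.1 ± 29.5 in heart and -5.4 ± 15.2 in spleen, with an exact permutation p of 0.0143 (adjusted p = 0.0713). Computed over the 2000 most variable genes, the fourth passed, with an exact permutation p of 0.00581 (adjusted p = 0.029). Over all tested genes, the fourth had scores of -35.99, 15.89, 10.92, 36.13, 37.81 and 43.54 in hearts 1 to 6. In spleen its scores ran from -32.4 to 27.02. So hearts 4, 5 and 6 exceeded every spleen tumour, and heart 1 lay below them all. In the spleen tumours the fourth component was at -8.6 ± 12.2 in males and -2.2 ± 17.8 in females (SD, n = 10 each).

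**Figure D4:**
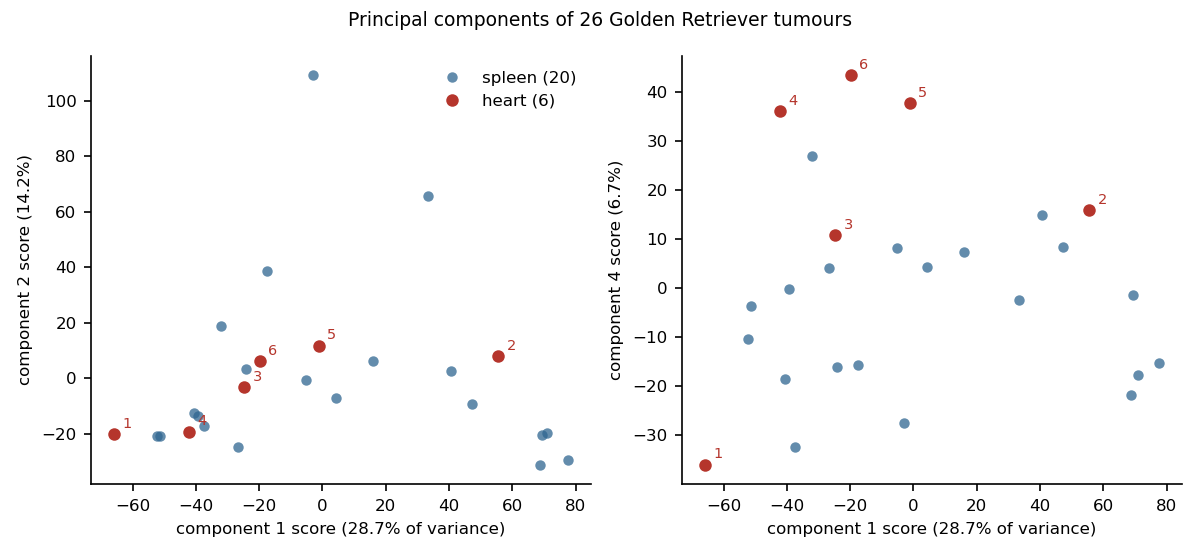
Both panels have the score on component 1 (28.7% of variance) on the horizontal axis, with component 2 (14.2%) on the left and component 4 (6.7%) on the right, for 20 spleen (blue) and 6 heart (red, numbered) tumours. Hearts are scattered among spleens on the left, and hearts 4, 5 and 6 lie above all spleens on the right.

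Spread within an organ was also measured gene by gene. The median SD of log2(FPKM + 1) over genes was 0.421 in heart and 0.502 in spleen, and 32.6% of genes had the larger SD in heart.

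The same contrast was then fitted in the other breeds, which share no tumour with the Golden Retrievers. There limma called 2 of 12253 genes, 0.0163%, both higher in heart, and 1279 genes (10.4%) had a raw p below 0.05. Neither gene was among the 2 of the Golden Retrievers. The count was 0 without other-breed heart 1, 3 or 4 (limma, with 1222, 1055 and 821 genes at a raw p below 0.05), 10 without heart 2 and 16 without heart 5. Over the 12169 genes tested in both sets the log2 differences had a Pearson r of 0.38 and a Spearman rho of 0.30, a description across genes, which are not independent of each other.

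Direction was more often shared by the genes that stood out. Of all genes tested in both sets, 59.6% differed in the same direction. Of the 559 with a raw p below 0.05 in Golden Retrievers, 71.7% did, and 63 of these also had a raw p below 0.05 in the same direction in the other breeds (11.3%, against 7.31% of all genes). This was 13.8% of those higher and 7.88% of those lower in Golden Retriever hearts, against 8.3% and 6.39% of all genes higher or lower there. The 318 genes of this kind that were higher in Golden Retriever hearts had a median difference of 0.713 there and of 0.245 in the other breeds. The 241 that were lower had -0.613 and -0.18. The other-breed filter kept 318 of the 370 genes higher in Golden Retriever hearts and 241 of the 243 lower. A gene with fewer than 3 other-breed spleens at 1 FPKM passes that filter only through hearts, which favours a shared direction toward heart. How many of the 318 entered in this way is not given. The median over all genes in the other breeds was 0.011. The medians in the second set of dogs were smaller than in the set where the genes were picked.

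**Figure D5:**
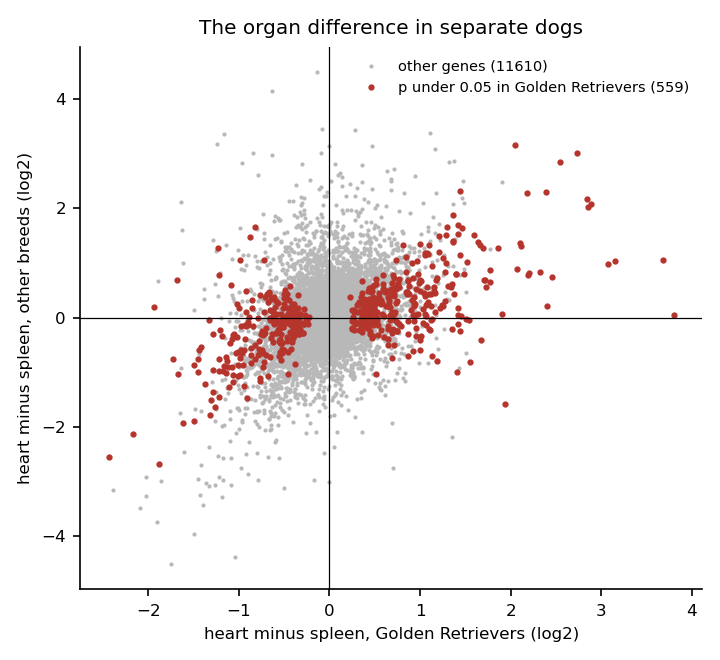
Each of 12169 genes is placed by its heart minus spleen difference in Golden Retrievers (horizontal, log2) and in other breeds (vertical, log2). The 559 genes with a raw p below 0.05 in Golden Retrievers (red) lie more often in the lower left and upper right, where 71.7% of them fall.

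The named genes took lower or overlapping values in the other breeds. ENSCAFG00000014457 was at 0.796, 0, 0.587, 0.663 and 3.45 FPKM in the 5 hearts and reached 1.78 FPKM in the 12 spleens, a log2 difference of 0.55 ± 0.33 (SE, limma adjusted p = 0.565). ENSCAFG00000002572 was at 0.797, 1.22 and 0.051 FPKM in hearts 1, 2 and 3, was listed at 0 in hearts 4 and 5, and reached at most 0.174 FPKM in spleen. It did not pass the filter in that set, and fitted without the filter its difference was 0.37 ± 0.15 (SE, limma adjusted p = 0.438). Of the pair lower in Golden Retriever hearts, ENSCAFG00000003555 had -0.75 ± 0.42 and ENSCAFG00000017107 had -0.20 ± 0.38 (SE, limma adjusted p of 0.546 and 0.904).

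Whether the organ difference itself differed between the breed classes was examined by an interaction term fitted to 43 tumours. Of 12844 genes, 0 or 0% passed in limma. The lowest adjusted p was 0.693, and 551 genes (4.29%) had a raw p below 0.05. For ENSCAFG00000014457 the interaction was 1.18 with a 95% interval from 0.33 to 2.03, and for ENSCAFG00000002572 it was 0.73 with an interval from 0.24 to 1.23 (limma adjusted p of 0.986 and 0.944). These genes were picked for their Golden Retriever difference, which the interaction shares.

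Of the 2 genes called in the other breeds, 1 had a difference of like size in Golden Retrievers and 1 had a difference near 0. The first, whose log2 difference in the other breeds was 2.85 ± 0.40, was at 34.32, 0.46, 2.13, 7.89, 35.74 and 26.23 FPKM in Golden Retriever hearts 1 to 6. Golden Retriever spleens had a median of 0.422 and a highest value of 25.3 FPKM for it, and the log2 difference was 2.54 ± 0.60 (SE, limma adjusted p = 0.148). Hearts 1, 5 and 6 were above every spleen and the other hearts were not. The second, at 3.45 ± 0.54 in the other breeds, had a difference of -0.08 ± 0.74 in Golden Retrievers (SE, limma adjusted p = 0.998), where its hearts ran from 0.17 to 14.58 FPKM and its spleens up to 87.9 FPKM. The interaction of the second was -3.53 ± 1.01 and did not pass after adjustment (SE, limma adjusted p = 0.773).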

How the data were processed

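Gene levels were measured by RNA sequencing in 51 dog tumours, of which 26 form the main comparison. The authors deposited a table of FPKM values for 16382 genes, with a column for each tumour. The tools named in the submitters' processing notes are FastQC 0.11.2, TopHat 1.4.1 and Cuffdiff, and the build is CanFam3.1. The sources used here do not give the annotation, strand setting, filters, scaling between libraries or fragment totals, so depth is known only as a ratio between libraries and no counting interval was computed. Genes sharing reads with near-identical copies could not be identified.

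Values were analysed as log2(FPKM + 1). A gene was tested if 3 or more of the tumours in a fit reached 1 FPKM, using limma 3.58.1 under R 4.3.3 (mean trend, no covariate, Benjamini-Hochberg adjustment over all tested genes, two-sided, threshold 0.05). Single values were tested by exact permutation over all 230230 choices of 6 of 26 tumours. Relative depth was solved from the commonest ratio of 2842 low genes between libraries, and 100% of pairs lay within 0.05 of it on the log2 scale. Over pairs, a median of 12.6% of the low genes compared lay on that ratio. The fits were tested on simulated data. Whether all tumours are from different dogs is not stated in the labels, and p-values measure only the spread between these samples, which may in part be technical. The highest correlation of any pair of the 26 libraries was 0.975 over all genes, and none was treated as a duplicate.

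With no symbols, the named genes are the 2 with the smallest p in each direction. The members, lists and rules were chosen with earlier results of these data known. The tallies of separated and sparse genes by heart, the lists without hearts 1, 2 and 3, and the genes passing the filter through the hearts, were looked at after the values were seen. Other settings tried were pseudocounts of 0.1 and 5, other filters, 2 rescalings, other variance and weight models, covariates, subsets of dogs, a rank test and leaving out each tumour. Marker lists by symbol were not scored.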

Additional observations from a re-analysis of the deposited data

Results flagged for a closer look

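A sample stood far from the rest of its group in 3 of 18 small groups examined, where chance flags about 1 in 20. Golden Retriever heart 1 had 10604 genes at 1 FPKM or more, below the other 5 hearts. In the heart tumours of other breeds, ENSCAFG00000014457 was at 3.45 FPKM in heart 5, above the other 4, and ENSCAFG00000003555 was at 8.88 FPKM in heart 3. What sets these samples apart was not tested.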

How the results depend on the processing

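The count of 2 genes in Golden Retrievers was the same with a pseudocount of 5, median-ratio rescaling, robust fitting, sex or relative depth as a covariate, and 3 without a mean trend. It was 5 with a pseudocount of 0.1 and 5 without a filter, 8 after quantile normalization, 72 with array weights (69 higher, 3 lower) and 37 when the variance was shared over 43 tumours. It was 1 with sex, neuter status and age as covariates and 1 in neutered dogs. It was 0 with a mean level of 5 FPKM required (395 with a raw p below 0.05), with 1 FPKM required in 6 tumours (550), without CHAD titles (600), in males (507), in intact dogs (433) and by the rank test (603). Subsets and stricter filters test fewer samples or genes, and the 2 called genes fail the stricter filters. For the remaining settings the cause was not tested. Leaving out 1 tumour gave 0 to 49 genes. In the other limma settings where they were tested, ENSCAFG00000014457 was called in 37 of 41 and ENSCAFG00000002572 in 34 of 37, higher in heart in all of them, and the rank test called neither (exact adjusted p of 0.218 and 0.283). In the other breeds the count was 1 with a pseudocount of 0.1, 1 with sex as a covariate, 0 with a mean level of 5 FPKM required (979 with a raw p below 0.05) and 0 to 16 without 1 heart. The interaction gave 0 genes in each other setting tried (limma, with 351 to 715 at a raw p below 0.05). In males, 5 hearts against 10 spleens, 4 genes had every heart above every spleen and 4 had every heart below. Full separation is easier with fewer tumours, and these counts were not set against chance. With limits of 20 and 1 FPKM, 8 genes were high in heart and 92 in spleen. The fourth component reached an adjusted p of 0.029 (exact permutation) over the 2000 most variable genes. No paired analysis was possible because the labels do not say which samples, if any, come from the same dog. Depth limits both called genes, which rest on at most 37 steps in a library.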

Other observations

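The called genes were also looked up in the 8 tumours of other sites, which entered no comparison. The tumour of undetermined origin came from an intact female Golden Retriever aged 0.7 years. Liver 2 and the metastatic tumour came from neutered female Golden Retrievers aged 9.6 and 11.3 years. The others were of other breeds, aged 8.7 to 10.9 years. Among these, the abdominal mass not labelled metastatic came from an intact male, liver 1 from an intact female and the rest from neutered females. ENSCAFG00000014457 was at 1.75 FPKM in a tumour whose origin is labelled undetermined, 1.03 in the metastatic abdominal mass, 0.46 in the other abdominal mass and 0.30 in the cutaneous tumour, and was listed at 0 in the 3 liver tumours and the metastatic tumour. ENSCAFG00000002572 was at 0.22 FPKM in liver 2, at 0.20 in the tumour of undetermined origin and at 0.10 or less in the other 6.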
